A study of Mus musculus with 8 samples.

Results

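The genes described here are the glycolysis and hypoxia genes of mouse helper T cells, a list of 37 that holds the glucose and lactate transporters, the enzymes of glycolysis, and genes that the hypoxia-inducible factor (HIF) is known to switch on. They were chosen by name, and 34 of the 37 could be measured, out of 19938 genes in all. Gpi1, Eno1 and Gapdh had no probeset that the platform annotation pairs with a single gene, and they were not analysed here. The study measured 8 cultures on 1 Affymetrix array each, in 4 groups of 2: wild-type Th1, Tet2-/- Th1, wild-type Th17 and Tet2-/- Th17 cells. All 8 began as sorted naive CD4+ T cells (CD25-, CD62L high and CD44 low) from the spleen and lymph node of C57BL/6 mice, stimulated with plate-bound anti-CD3 and soluble anti-CD28. For Th1 cells the medium held IL-12 at 10 ng/ml and IL-2 at 30 U/ml, with IL-4 blocked by antibody. For Th17 cells it held TGF-β1 at 0.5 ng/ml and IL-6 at 10 ng/ml, with IFN-γ and IL-4 blocked. IL-2 was therefore named for Th1 cultures only, and lineage and cytokine mixture cannot be told apart. The sources used here do not give the kind of Tet2 deletion or the age of the mice. The Tet2-/- groups are called Tet2-deficient below.

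Glycolysis breaks glucose down to pyruvate, which is either oxidised in mitochondria or reduced to lactate and exported. Activated T cells use glycolysis heavily even where oxygen is plentiful. HIF is a pair of proteins, an α subunit such as Hif1a and its partner Arnt, that binds short DNA sites near glycolytic and hypoxia genes. With oxygen present, the prolyl hydroxylases encoded by Egln1 and Egln3 mark the α subunit for destruction. HIF is known to favour Th17 over regulatory T cell development in mice. Tet2 oxidises methylated cytosine in DNA.

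All levels below are log2 array values, in which a difference of 1 is a doubling. Differences are taken for the same gene between groups, and some low levels are also set beside the array medians. Array medians lay between 6.47 and 6.53. Correlations across probesets were 0.982 to 0.989 within a group and 0.970 to 0.980 between Th1 and Th17 arrays. Between genotypes of the same cell type they were 0.984 to 0.990, as high as within a group. The T cell gene Cd3e read 11.00 to 11.49 on all arrays. Il17a read 8.91 to 9.85 on Th17 arrays and 5.89 to 6.20 on Th1 arrays. Ifng read 10.18 to 11.89 on Th1 arrays and 6.00 to 6.07 on Th17 arrays, so both went in the direction of the labels. Of 5 Th1 markers, 3 were lower in Th17 cells in both genotypes by the limma call defined below. The other Th1 markers overlapped: Cxcr3 read 7.61 to 7.85 on Th1 and 7.43 to 7.73 on Th17 arrays. Il18rap read 6.75 to 7.38 on Th1 and 6.89 to 7.23 on Th17 arrays. The lists of B cell, myeloid, erythroid and NK markers had mean levels of 4.99 to 6.05 on every array, below every array's median. Within the NK list, Eomes, which activated T cells can also express, read 8.17 to 8.26 on Th1 arrays and 6.69 to 7.06 on Th17 arrays and was called lower in Th17 cells in both genotypes. The CD8 T cell list (2 genes) ran from 6.32 to 6.56 on Th1 arrays and from 6.23 to 6.33 on Th17 arrays. The single Tet2 probeset overlapped between genotypes in Th1 cells (wild-type 8.14 and 8.03, Tet2-deficient 8.12 and 7.97) and was lower without overlap in Tet2-deficient Th17 cells (8.37 and 8.42, against 8.53 and 8.51). Whether it lies inside the deleted part is unknown, and the genotype labels could not be checked with it. The Th17 arrays stood apart in sex-linked transcripts. Xist read 5.20 and 10.09 in wild-type and 8.62 and 11.27 in Tet2-deficient Th17 cells, against 4.83 to 5.11 in Th1 cells. The mean of 3 Y-linked genes read 8.80 and 7.82, then 8.71 and 4.85 on the same Th17 arrays, against 7.94 to 8.24 in Th1 cells. Counts of called genes are also given without wild-type Th17 array 1 and Tet2-deficient Th17 array 2, which lie at the ends of the Y-linked range. The Th17 arrays that are kept still read Xist at 10.09 and 8.62, above every Th1 array. Leaving the 2 out therefore does not balance sex between the cell types, and it cannot tell sex composition apart from lineage.

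The first comparison asks how Th17 cells differ from Th1 cells in these genes. In wild-type cells, 10 of the 34 differed at a limma p below 0.05 after Benjamini-Hochberg adjustment over all 19938 genes, which is what "called" means here. Of these, 9 were higher in Th17 cells (Pfkl, Pfkfb3, Slc16a3, Pdk1, Bnip3, Egln1, P4ha1, Kdm3a and Ak4) and 1 was lower (Hk2). Among all genes 8.47% were called in this contrast, 5.3% higher and 3.17% lower, against 29.4% of the 34. In Tet2-deficient cells, 14 of the 34 were called, 12 higher and 2 lower, beside 10.4% of all genes (7.14% higher and 3.29% lower). The 8 genes higher in both genotypes, which are the named 9 without Ak4, make up 88.9% of the wild-type list and 66.7% of the Tet2-deficient list. Because 33 of the 34 genes had a mean level of 6 or more, the background was also taken over the 12990 genes at that level, of which 11.0% were called in wild-type cells and 14.0% in Tet2-deficient cells. The median difference over the 34 genes was 0.19 in each genotype, against -0.01 over all genes. In wild-type cells, 20 genes had both Th17 arrays above both Th1 arrays and 3 had both below, where all genes gave 25.2% and 26.7%. In Tet2-deficient cells the numbers were again 20 and 3, where all genes gave 28.8% and 27.6%. In these bulk cultures, fewer cells of a kind and less RNA per cell cannot be told apart. Without the 2 sex-end Th17 arrays, 3 genes were called in wild-type cells (Pfkl, Pfkfb3 and P4ha1) and 6 in Tet2-deficient cells (these 3 with Slc16a3, Pdk1 and Bnip3), while the counts over all 19938 genes fell to 808 and 975. Leaving out 1 array also lowered the counts, to 4 without either wild-type Th17 array (1149 and 667 of all genes without array 1 or 2). In Tet2-deficient cells they were 6 and 7 without Th17 array 1 or 2 (815 and 1146 of all genes) and 6 and 9 without Th1 array 1 or 2 (1003 and 1251 of all genes).

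**Figure D1:**
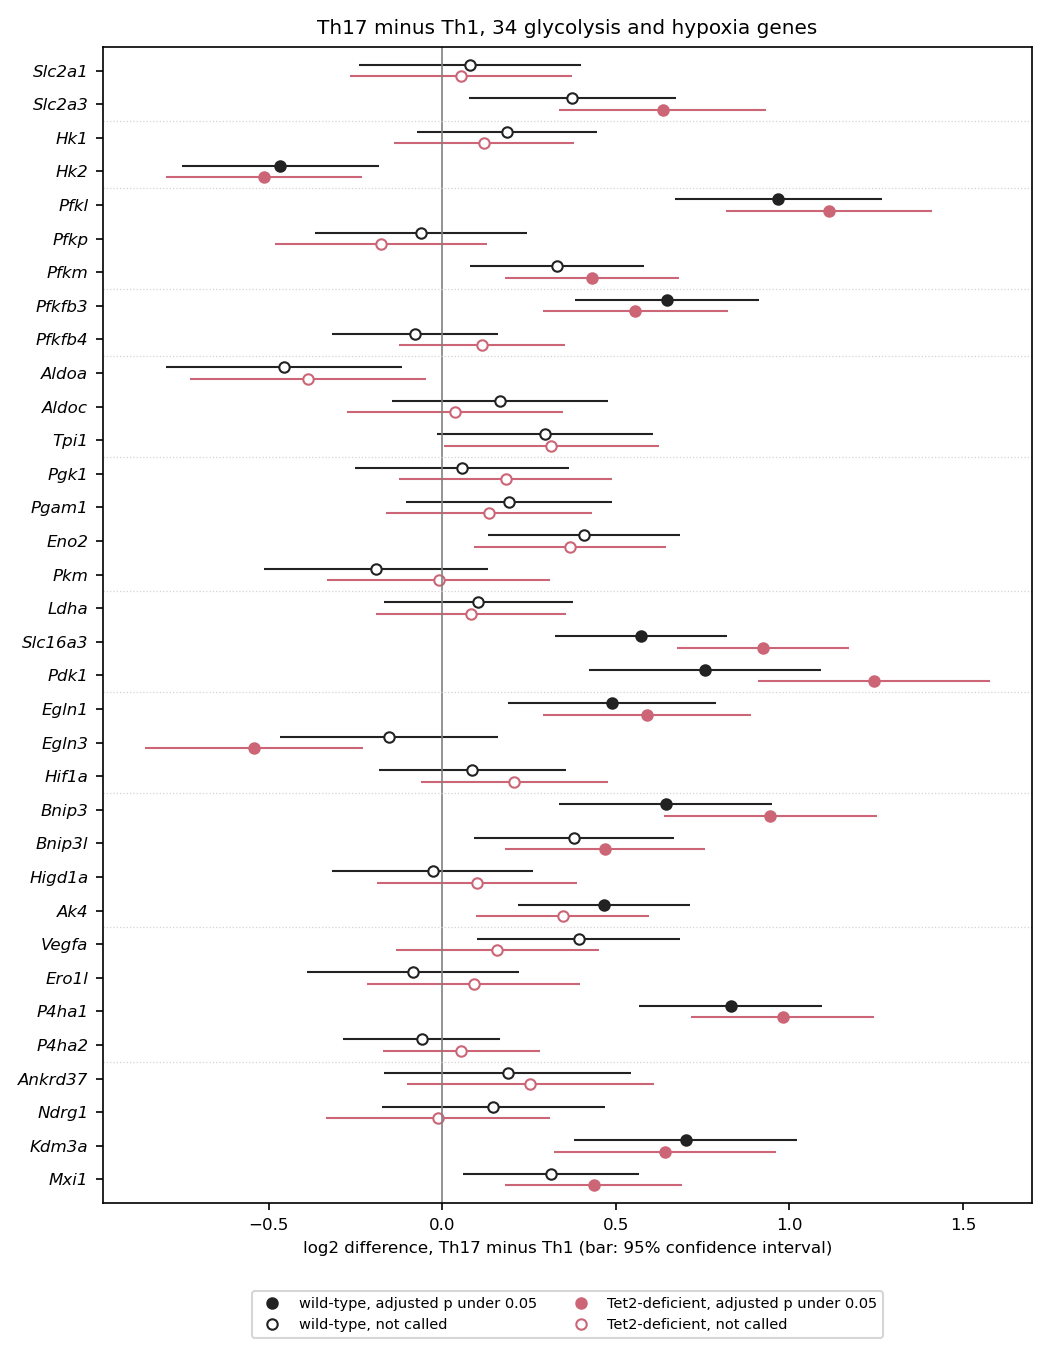
The log2 difference of Th17 minus Th1 cells is plotted for the 34 measured genes in wild-type and Tet2-deficient cells, with 95% confidence intervals from the limma fit; filled marks are genes called at an adjusted p under 0.05. Pfkl, P4ha1, Pdk1 and Slc16a3 lie to the right of 0 in both genotypes and Hk2 to the left.

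To show where the DNA sites read by HIF could lie, the promoter windows of 6 genes called in both genotypes are printed: 5 that were higher in Th17 cells (Pfkl, Slc16a3, Pdk1, P4ha1 and Bnip3) and Hk2, which was lower. Each window runs from 250 bases before to 50 bases after an annotated start of the gene in RefSeq on the build GRCm38.p6. It is printed 5′ to 3′ along the gene's own strand. That start need not be the outermost one of the gene. The gene spans of Slc16a3, Pdk1 and P4ha1 begin at 120948484, 71873215 and 59323197, and the Slc16a3 window lies wholly past that point. Capitals mark the core letters of the hypoxia response element, ACGTG or else GCGTG, read on either strand. The first of these also lies inside the E-box that Myc-type factors read, which is CACGTG. The windows are Pfkl at chr10:78009758-78010057 on the minus strand, Slc16a3 at chr11:120948817-120949116 on the plus strand, Pdk1 at chr2:71872974-71873273 on the plus strand, P4ha1 at chr10:59323046-59323345 on the plus strand, Bnip3 at chr7:138909457-138909756 on the minus strand and Hk2 at chr6:82774405-82774704 on the minus strand.
Pfkl: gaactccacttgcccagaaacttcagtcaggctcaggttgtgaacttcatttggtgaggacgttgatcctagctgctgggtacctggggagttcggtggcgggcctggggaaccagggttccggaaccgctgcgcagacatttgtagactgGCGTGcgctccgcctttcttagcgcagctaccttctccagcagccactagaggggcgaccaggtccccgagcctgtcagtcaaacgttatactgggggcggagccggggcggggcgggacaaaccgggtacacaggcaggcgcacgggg
Slc16a3: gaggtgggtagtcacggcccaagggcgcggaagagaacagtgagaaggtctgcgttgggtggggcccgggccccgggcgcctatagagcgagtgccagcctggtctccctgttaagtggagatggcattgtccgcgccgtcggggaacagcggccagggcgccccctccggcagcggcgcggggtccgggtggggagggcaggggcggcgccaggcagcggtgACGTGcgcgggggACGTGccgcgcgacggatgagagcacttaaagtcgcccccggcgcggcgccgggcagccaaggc
Pdk1: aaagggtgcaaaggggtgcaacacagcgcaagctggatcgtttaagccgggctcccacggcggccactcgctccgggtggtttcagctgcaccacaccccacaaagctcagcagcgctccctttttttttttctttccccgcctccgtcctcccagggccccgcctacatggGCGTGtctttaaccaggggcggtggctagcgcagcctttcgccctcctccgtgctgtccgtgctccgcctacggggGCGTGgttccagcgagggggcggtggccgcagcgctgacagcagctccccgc
P4ha1: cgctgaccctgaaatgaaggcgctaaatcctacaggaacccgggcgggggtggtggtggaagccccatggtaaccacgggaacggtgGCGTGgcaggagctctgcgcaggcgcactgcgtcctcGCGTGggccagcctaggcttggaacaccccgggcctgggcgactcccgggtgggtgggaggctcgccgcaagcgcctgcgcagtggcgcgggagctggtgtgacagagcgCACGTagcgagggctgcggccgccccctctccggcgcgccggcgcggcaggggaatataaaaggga
Bnip3: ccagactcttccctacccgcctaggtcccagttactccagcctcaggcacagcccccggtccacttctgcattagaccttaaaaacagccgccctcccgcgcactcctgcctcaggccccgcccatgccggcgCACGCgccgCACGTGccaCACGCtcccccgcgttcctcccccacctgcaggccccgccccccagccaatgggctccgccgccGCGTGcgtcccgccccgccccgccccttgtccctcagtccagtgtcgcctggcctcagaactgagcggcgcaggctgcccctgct
Hk2: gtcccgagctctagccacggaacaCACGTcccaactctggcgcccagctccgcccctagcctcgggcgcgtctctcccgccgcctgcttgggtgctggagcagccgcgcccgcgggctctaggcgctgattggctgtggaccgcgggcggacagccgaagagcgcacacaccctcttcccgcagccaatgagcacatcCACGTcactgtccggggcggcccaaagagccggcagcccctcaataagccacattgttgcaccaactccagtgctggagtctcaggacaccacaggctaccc

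The Bnip3 window holds 5 matches, counted on both strands, of which 2 are the strands of 1 CACGTG, while Pfkl holds 1, Slc16a3, Pdk1 and Hk2 hold 2 each, and P4ha1 holds 3. A second RefSeq window of Pdk1 holds 0. RefSeq windows were matched for 34 of the 37 listed genes, 31 of them measured; Slc2a3, Bnip3l and Ndrg1 had none. Of those 31 measured genes, 29 held ACGTG or GCGTG in at least 1 window (39 of 50 windows, 78.0%), against 46.7% of 27025 genes and 43.8% of 32851 windows in the whole table. The letters were in all 8 genes that were higher in Th17 cells in both genotypes (9 of 12 windows) and in 21 of the other 23 (30 of 38 windows, 78.9%). These windows were also rich in CpG, with a median of 23 per window against 7 over the whole table, and both motifs contain a CpG. A match is a description of letters and shows no binding.

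At the entry of glucose, Slc2a3 was called in Tet2-deficient cells and Slc2a1 in neither genotype. Slc2a1, the main glucose transporter of activated T cells, read 10.62 and 10.91 in wild-type Th1 cells and 10.81 and 10.88 in wild-type Th17 cells. It read 10.92 and 10.57 in Tet2-deficient Th1 and 10.82 and 10.78 in Tet2-deficient Th17 cells, so the groups overlapped in both genotypes and the wild-type difference was 0.08 (adjusted p = 0.788). Slc2a3, a transporter with high affinity for glucose, read 9.60 and 9.91 in wild-type Th1 cells and 10.14 and 10.12 in wild-type Th17 cells. The corresponding Tet2-deficient arrays read 9.82 and 9.77, then 10.33 and 10.53, a difference of 0.64 (SE 0.138, adjusted p = 0.0110). Slc2a3 was higher on all 4 Th17 arrays than on all 4 Th1 arrays, but the wild-type difference of 0.37 was not called (adjusted p = 0.115). Its Tet2-deficient call was lost without Th1 array 1, Th1 array 2 or Th17 array 2 of that genotype.

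Hk2, the inducible hexokinase that traps glucose inside the cell, was the gene of the list called lower in Th17 cells in both genotypes. It read 9.26 and 9.57 in wild-type Th1 cells and 8.91 and 8.99 in wild-type Th17 cells, a difference of -0.47 (SE 0.130, adjusted p = 0.0451). In Tet2-deficient cells it read 9.17 and 9.12 in Th1 and 8.60 and 8.66 in Th17 cells, a difference of -0.52 (adjusted p = 0.0251). The Th17 arrays lay below the Th1 arrays without overlap. Hk1, the constitutive hexokinase, ran from 12.94 to 13.24 over the 8 arrays at the probeset used and was not called. Its other single-gene probeset, which lies among neighbours on the gene's own chromosome, ran from 8.79 to 9.18, so the level of Hk1 is uncertain. The wild-type call of Hk2 sits close to the threshold and held under 6 of 19 alternatives, and the Tet2-deficient call under 13 of 19.

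At phosphofructokinase, the committed step of glycolysis, the liver isoform Pfkl and the activator gene Pfkfb3 were higher in Th17 cells in both genotypes. Pfkl read 7.86 and 8.01 in wild-type Th1 cells and 8.90 and 8.91 in wild-type Th17 cells, a 1.96-fold rise (log2 difference 0.97, SE 0.137, adjusted p = 0.00084). In Tet2-deficient cells it read 7.80 and 7.88 in Th1 and 8.77 and 9.14 in Th17 cells, a 2.17-fold rise (1.11, SE 0.137, adjusted p = 0.000271). The Th17 arrays lay above the Th1 arrays by more than the spread within a group, and Pfkl was called under all 19 alternatives in each genotype. The muscle isoform Pfkm read 6.66 and 6.71 in wild-type Th1 and 7.03 and 6.99 in wild-type Th17 cells, and 6.86 and 6.70 against 7.12 and 7.30 in Tet2-deficient cells. Its difference was called in Tet2-deficient cells (0.43, adjusted p = 0.0322) and not in wild-type cells (0.33, adjusted p = 0.0985). The platelet isoform Pfkp read 10.40 and 10.46 in wild-type Th1 and 10.29 and 10.45 in wild-type Th17 cells, which overlap, a difference of -0.06. The Tet2-deficient arrays read 10.55 and 10.75 against 10.63 and 10.32, again overlapping. Pfkfb3 makes the small sugar phosphate that activates phosphofructokinase. It read 7.25 and 7.44 in wild-type Th1 and 7.94 and 8.04 in wild-type Th17 cells (0.65, SE 0.123, adjusted p = 0.00647), and 7.46 and 7.43 against 8.10 and 7.90 in Tet2-deficient cells (0.56, adjusted p = 0.0120). Its relative Pfkfb4 was 6.36 to 6.58 on all 8 arrays. Pfkp and Pfkfb4 were called in neither genotype.

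Of the listed enzymes of the middle and lower part of glycolysis, the 7 that were measured were not called in either genotype. Aldoa, an aldolase, read 12.03 and 11.94 in wild-type Th1 cells and 11.43 and 11.63 in wild-type Th17 cells, a difference of -0.46 that missed the threshold (adjusted p = 0.0934). Its Tet2-deficient arrays read 12.35 and 11.87 against 11.70 and 11.75, a difference of -0.39 (adjusted p = 0.146). Eno2, an enolase, read 6.97 and 6.86 against 7.21 and 7.44, a difference of 0.41 (adjusted p = 0.0679). Tpi1, the triose phosphate isomerase, ran from 9.79 to 10.44 over the 8 arrays and differed by 0.30 in wild-type cells and 0.31 in Tet2-deficient cells (adjusted p = 0.229 and 0.199). Pkm, the pyruvate kinase of dividing cells, read 10.81 and 11.13 in wild-type Th1 and 10.71 and 10.86 in wild-type Th17 cells (-0.19, adjusted p = 0.470), and 11.07 and 10.83 against 10.84 and 11.03 in Tet2-deficient cells. The phosphoglycerate kinase Pgk1 ran from 12.18 to 12.52 over the 8 arrays and differed by 0.06 in wild-type cells (adjusted p = 0.850). The phosphoglycerate mutase Pgam1 ran from 9.97 to 10.32 and the aldolase Aldoc from 9.42 to 9.92, and neither was called in either genotype. A p above the threshold does not show that the levels were equal.

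At the fate of pyruvate, Slc16a3 and Pdk1 were higher in Th17 cells and Ldha was not called. Slc16a3, the exporter of lactate, read 8.70 and 8.72 in wild-type Th1 cells and 9.30 and 9.26 in wild-type Th17 cells, a 1.49-fold rise (0.57, SE 0.114, adjusted p = 0.00852). In Tet2-deficient cells it read 8.66 and 8.57 against 9.55 and 9.52, a 1.90-fold rise (0.92, SE 0.114, adjusted p = 0.000274). Pdk1 is a kinase that inhibits pyruvate dehydrogenase and so limits the oxidation of pyruvate in mitochondria. It read 7.39 and 7.60 in wild-type Th1 cells and 8.45 and 8.05 in wild-type Th17 cells, a 1.69-fold rise (0.76, SE 0.154, adjusted p = 0.00986). In Tet2-deficient cells it read 7.16 and 6.99 in Th1 and 8.18 and 8.45 in Th17 cells, a 2.37-fold rise (1.24, SE 0.154, adjusted p = 0.000282). The Th17 arrays lay above the Th1 arrays without overlap for both genes and both genotypes. Ldha, which turns pyruvate into lactate, read 12.49 and 12.53 in wild-type Th1 and 12.57 and 12.66 in wild-type Th17 cells, and 12.71 and 12.46 against 12.67 and 12.67 in Tet2-deficient cells. Its wild-type difference was 0.10 (adjusted p = 0.666).

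**Figure D2:**
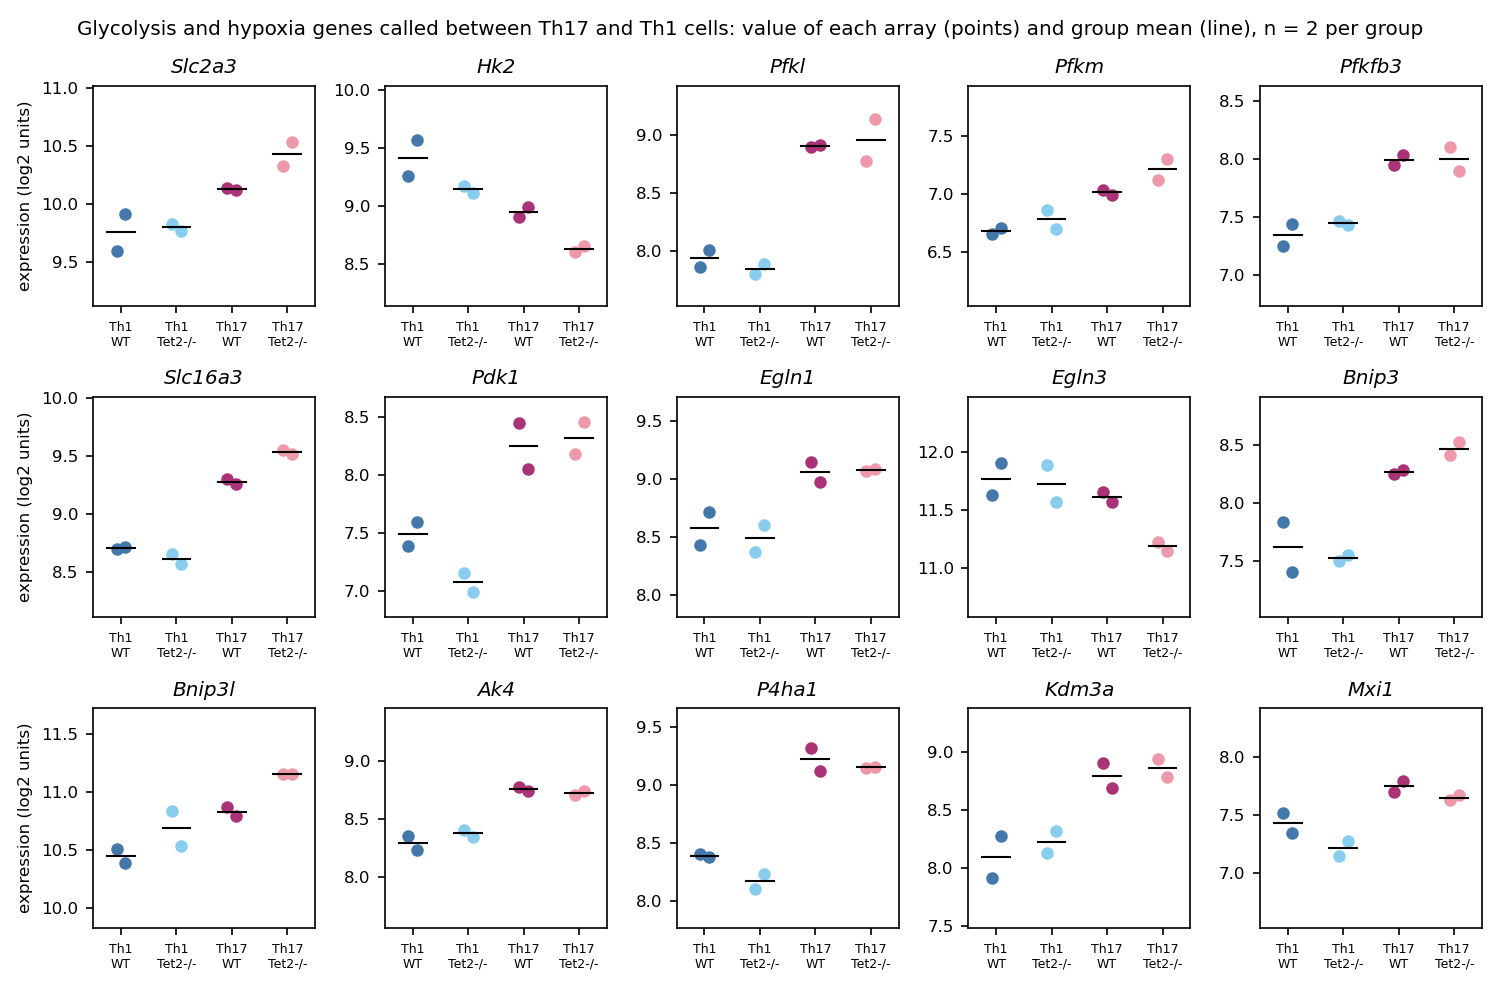
Log2 levels on each of the 8 arrays are plotted for genes called between Th17 and Th1 cells, with 1 mark per array and the groups side by side. In Pfkl, Slc16a3, Pdk1 and P4ha1 all 4 Th17 arrays lie above all 4 Th1 arrays, and in Hk2 all 4 lie below.

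Among the targets of HIF outside glycolysis, P4ha1 and Kdm3a were higher in Th17 cells in both genotypes. P4ha1, the catalytic subunit of the enzyme that hydroxylates collagen, read 8.41 and 8.38 in wild-type Th1 cells and 9.32 and 9.12 in wild-type Th17 cells, a 1.78-fold rise (0.83, SE 0.122, adjusted p = 0.00111). P4ha1 on Tet2-deficient arrays read 8.11 and 8.24 against 9.15 and 9.16, a 1.97-fold rise (0.98, adjusted p = 0.00028). It was called under all 19 alternatives in each genotype. Its relative P4ha2 stayed between 5.60 and 5.83 on all 8 arrays, a level below every array's median, and was not called. Kdm3a, a histone demethylase that HIF induces, read 7.92 and 8.28 in wild-type Th1 and 8.91 and 8.69 in wild-type Th17 cells (0.70, SE 0.148, adjusted p = 0.0117), and 8.13 and 8.32 against 8.94 and 8.79 in Tet2-deficient cells (0.64, adjusted p = 0.0154). The secreted factor Vegfa, which promotes vessel growth, read 7.85 and 7.73 in wild-type Th1 and 8.07 and 8.29 in wild-type Th17 cells (0.39, adjusted p = 0.0936), and 7.89 and 8.11 against 8.27 and 8.05 in Tet2-deficient cells. Ero1l, an oxidase of the endoplasmic reticulum now named Ero1a, differed by -0.08 in wild-type cells. Ndrg1, a stress-induced gene, read 9.40 and 9.28 in wild-type Th1 and 9.30 and 9.68 in wild-type Th17 cells (0.15), and 9.50 and 9.54 against 9.64 and 9.38 in Tet2-deficient cells. Neither was called in either genotype. Ankrd37, a hypoxia-induced ankyrin repeat gene, ran from 6.55 to 7.12 over the 8 arrays and was called in neither.

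Of the oxygen-sensing genes, Egln1 was higher in Th17 cells in both genotypes and Hif1a was called in neither. Hif1a read 12.17 and 12.34 in wild-type Th1 and 12.39 and 12.29 in wild-type Th17 cells, and 12.07 and 12.21 against 12.33 and 12.36 in Tet2-deficient cells. Its wild-type difference was 0.09 (adjusted p = 0.722), and HIF is set mainly by protein stability, which an array does not measure. Egln1 read 8.43 and 8.72 in wild-type Th1 and 9.15 and 8.98 in wild-type Th17 cells (0.49, SE 0.138, adjusted p = 0.0474), and 8.37 and 8.61 against 9.07 and 9.09 in Tet2-deficient cells (0.59, adjusted p = 0.0170). The wild-type call held under 6 of 19 alternatives. Egln3 went the other way in Tet2-deficient cells, with 11.89 and 11.57 in Th1 and 11.23 and 11.15 in Th17 cells, a difference of -0.54 (SE 0.145, adjusted p = 0.0323). In wild-type cells Egln3 read 11.63 and 11.91 against 11.66 and 11.57, which overlap, a difference of -0.15 (adjusted p = 0.564). Mxi1, which antagonises Myc, was called only in Tet2-deficient cells (0.44, adjusted p = 0.0329), where it read 7.15 and 7.27 in Th1 and 7.62 and 7.67 in Th17 cells; in wild-type cells it read 7.52 and 7.35 against 7.70 and 7.79 (0.31, adjusted p = 0.120).

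Bnip3 and Bnip3l encode receptors of mitophagy, the removal of mitochondria. Bnip3 read 7.84 and 7.40 in wild-type Th1 and 8.25 and 8.28 in wild-type Th17 cells, a 1.56-fold rise (0.64, SE 0.142, adjusted p = 0.0148). In Tet2-deficient cells it read 7.50 and 7.55 against 8.41 and 8.52, a 1.93-fold rise (0.94, SE 0.142, adjusted p = 0.00108). Bnip3l read 10.51 and 10.39 against 10.87 and 10.79 in wild-type cells (0.38, adjusted p = 0.0999) and 10.84 and 10.54 against 11.16 and 11.15 in Tet2-deficient cells (0.47, adjusted p = 0.0413). Ak4, an adenylate kinase of mitochondria, read 8.36 and 8.24 against 8.78 and 8.75 in wild-type cells (0.47, SE 0.115, adjusted p = 0.0257), and 8.41 and 8.35 against 8.71 and 8.75 in Tet2-deficient cells (0.35, adjusted p = 0.0760). Higd1a, a protein of the inner mitochondrial membrane, ran from 6.94 to 7.35 over the 8 arrays and was not called. All 4 genes have a second probeset, and their values depend on which is read.

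For 8 of the 34 genes (Hk1, Pgk1, Pgam1, Pkm, Bnip3, Bnip3l, Higd1a and Ak4) several single-gene probesets exist, and the one with the highest mean over all arrays was used. For all 8, the 20 probesets nearest to it by probeset number are mostly assigned to a chromosome other than the gene's own, while for the other 26 at least 17 of 20 lie on the gene's own chromosome. The probeset used for Bnip3, a gene on chromosome 7, is flanked by 20 of 20 on chromosome 14. The probeset that lies among its own chromosome's neighbours gave a smaller Bnip3 difference, 0.50 in wild-type cells and 0.53 in Tet2-deficient cells, which were still called (adjusted p = 0.0214 and 0.0136 over all single-gene probesets). The excess of the Bnip3 rise in Tet2-deficient over wild-type cells, 0.30 at the probeset used, was 0.02 there. Bnip3l was 0.38 and 0.52 at its own-chromosome probeset. For Ak4 it gave 0.12 in each genotype and ended the wild-type call (adjusted p = 0.595). For Hk1 it turned the sign, from 0.19 and 0.12 to -0.24 and -0.22, none of them called. Higd1a gave 0.41 and 0.02 there and -0.03 and 0.10 at the probeset used. Which probeset reads only the gene it is named for was not tested.

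**Figure D3:**
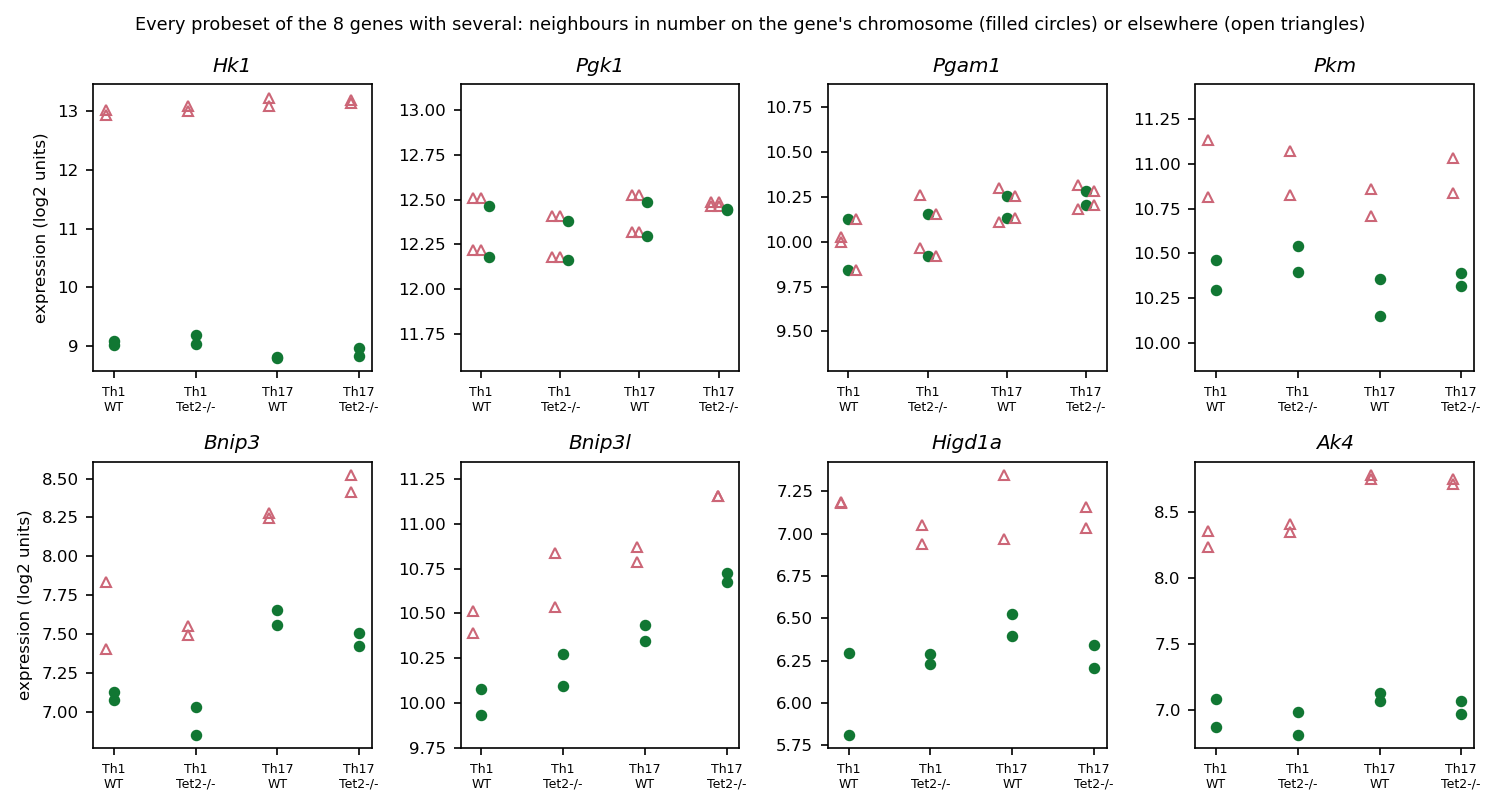
Log2 levels on each of the 8 arrays are plotted by group for every single-gene probeset of the 8 genes that have more than 1; filled circles are probesets whose neighbours in number lie on the gene's own chromosome and open triangles the others. For Ak4 the triangles are higher in Th17 than in Th1 cells (0.47 in wild-type cells) while the circles differ by 0.12.

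The difference between genotypes of the Th17 against Th1 contrast was tested directly, since several rises were larger in value in Tet2-deficient cells. None of the 34 was called by limma (adjusted p = 0.999 for each), beside 0% of all genes. At an unadjusted p below 0.05 there were 2 of 34, beside 4.55% of all genes; both were larger in Tet2-deficient cells (2.93% of all genes) and 0 were smaller (1.63%). These were Pdk1, by 0.49 (95% interval 0.01 to 0.96), and Slc16a3, by 0.35 (0.0008 to 0.70). Egln3 differed by -0.39 (-0.83 to 0.06). So the genes called in a single genotype (Ak4 in wild-type, and Slc2a3, Pfkm, Bnip3l, Mxi1 and Egln3 in Tet2-deficient cells) are not shown to differ between genotypes.

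The second comparison asks what loss of Tet2 does to these genes within each cell type. In Th1 cells, none of the 34 was called by limma, beside 0.00502% of all genes (1 gene), and 2 passed an unadjusted p below 0.05, beside 5.74% of all genes; both were lower (2.97% of all genes) and 0 were higher (2.77%). These were Pdk1, at -0.42 (SE 0.154, 95% interval -0.75 to -0.08, adjusted p = 0.824), and Ero1l, at -0.34 (adjusted p = 0.833). Pdk1 read 7.39 and 7.60 in wild-type and 7.16 and 6.99 in Tet2-deficient Th1 cells, with no overlap, and Ero1l read 10.35 and 10.69 against 10.21 and 10.15, again with no overlap. The next 2 by p in that direction were Hk2 (given below) and Mxi1 at -0.22, which read 7.52 and 7.35 in wild-type and 7.15 and 7.27 in Tet2-deficient Th1 cells. The 4 highest-ranked in the other direction were Aldoc (0.27; 9.42 and 9.47 against 9.92 and 9.50), Bnip3l (0.24), Vegfa (0.21) and Pfkp (0.22), with adjusted p of 0.853 or more. The 34 genes split evenly, with 17 higher and 17 lower and a median of 0.01, the same as over all genes. The arrays of the genotypes did not overlap for 5 genes that were higher and 7 that were lower, beside 18.3% and 14.4% of all genes. In Th17 cells, none was called (0% of all genes), and 5 passed an unadjusted p below 0.05, beside 4.25% of all genes. Of these, 3 were higher (Slc2a3, Slc16a3 and Bnip3l, where all genes gave 2.81%) and 2 lower (Hk2 and Egln3, where all genes gave 1.44%). Bnip3l was 0.33 higher (95% interval 0.04 to 0.61, adjusted p = 1.00), and Egln3 was -0.43 (SE 0.145, 95% interval -0.74 to -0.11, adjusted p = 0.960). Egln3 read 11.66 and 11.57 in wild-type and 11.23 and 11.15 in Tet2-deficient Th17 cells. Slc2a3 was at 0.30 and Slc16a3 at 0.26, each with both Tet2-deficient arrays above both wild-type arrays. Ero1l, with 10.55 and 10.33 in wild-type and 10.23 and 10.31 in Tet2-deficient Th17 cells, was at -0.17. By sign alone, 23 of the 34 genes were higher and 11 lower in Th17 cells, beside 11287 and 8651 of all genes. Their median was 0.05, against 0.02 over all genes. Here 10 genes were higher and 5 lower without overlap, beside 19.9% and 13.3% of all genes. The intervals of the 34 genes had a median half-width of 0.30 log2 units in each cell type. These intervals are not adjusted for the number of genes, and Pdk1 at -0.42 and Egln3 at -0.43 were still not called.

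Hk2 had the same sign in both cell types. It read 9.26 and 9.57 in wild-type against 9.17 and 9.12 in Tet2-deficient Th1 cells (-0.27, adjusted p = 0.853), and 8.91 and 8.99 against 8.60 and 8.66 in Th17 cells (-0.32, adjusted p = 1.00). Averaged over both cell types, Hk2 was at -0.30 (95% interval -0.50 to -0.10, adjusted p = 0.875). In that mean contrast none of the 34 was called (0% of all genes). At an unadjusted p below 0.05, 4 passed, beside 5.32% of all genes: 1 higher (Bnip3l, 0.28, where all genes gave 3.37%) and 3 lower (Hk2, Ero1l at -0.26 and Egln3 at -0.23, where all genes gave 1.95%).

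**Figure D4:**
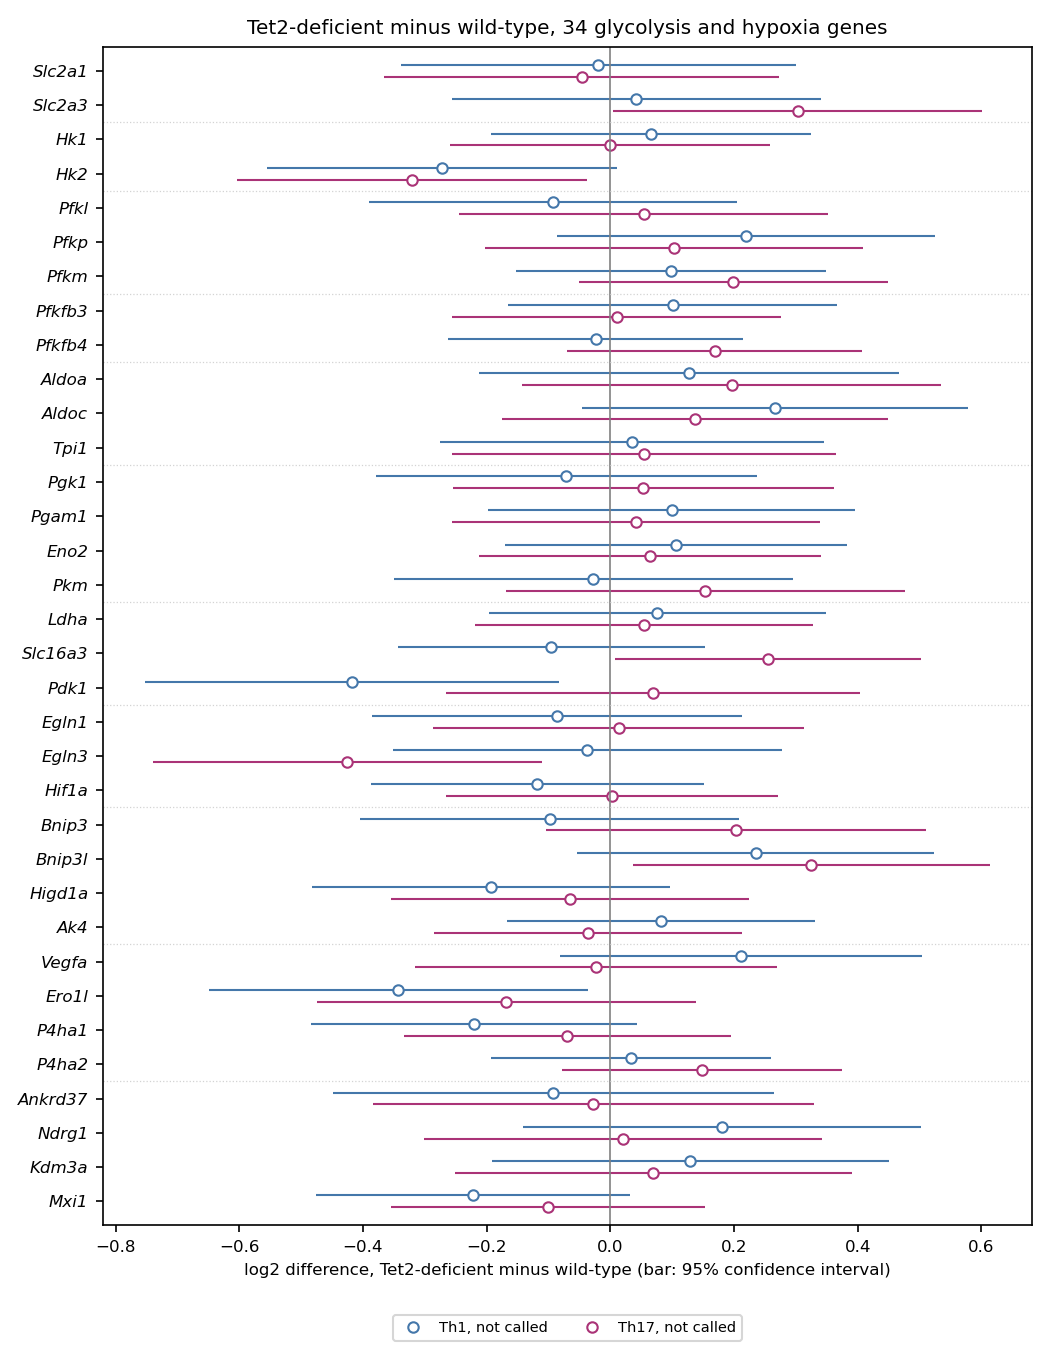
The log2 difference of Tet2-deficient minus wild-type cells is plotted for the 34 measured genes in Th1 and Th17 cells, with 95% confidence intervals from the limma fit. No gene was called in either cell type, and the values of Hk2 lie to the left of 0 in both.

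Genes of neighbouring pathways, on lists that overlap in part, were counted in the same Th17 against Th1 contrasts, where 8.47% of all genes were called in wild-type and 10.4% in the Tet2-deficient arrays. Of 10 measured HIF pathway regulators, 2 were higher in wild-type Th17 cells (Cited2 at 0.69 and Ep300 at 0.50) and 3 in Tet2-deficient cells (Arnt at 0.61, Cited2 at 1.08 and Ep300 at 0.60), with 0 lower and medians of 0.25 and 0.30. Arnt, the partner of Hif1a, was not called in wild-type cells (0.28, adjusted p = 0.238). Of 22 other HIF target genes, 4 were higher and 0 lower in wild-type cells (Rora at 2.13, Plod2 at 0.90, Pfkfb2 at 0.59 and Ddit4 at 0.48). In Tet2-deficient cells 6 were higher (Rora, Plod2, Ddit4, Gys1, Pgm1 and Pgm2) and 2 lower (Car9 and Stc2), with medians over the 22 of 0.09 and 0.24. Plod2, a collagen-modifying enzyme like P4ha1, was at 1.05 in Tet2-deficient cells. Rora is also on the Th17 marker list. Car9, a carbonic anhydrase induced by HIF, was at -0.44 there (adjusted p = 0.0149), at levels of 5.57 to 6.04 that lie below every array's median, and Stc2, a secreted glycoprotein, at -0.75. Of 26 genes of pyruvate oxidation and the TCA cycle, 1 was higher in wild-type (Suclg2 at 0.49) and 3 in Tet2-deficient Th17 cells (Pdk3 at 0.61, Suclg2 at 0.60 and Sucla2 at 0.52), with medians of 0.13 and 0.22. Of 7 genes of the pentose phosphate pathway, 0 were called in either genotype, with medians of 0.06 and 0.03. Of 11 other isozymes of glycolysis, 1 was higher (Pfkfb2 at 0.59) and 1 lower (Eno3 at -1.17) in wild-type cells, and 1 was lower in Tet2-deficient cells (Eno3 at -1.49). Of 17 regulators of T cell glycolysis, 1 was higher in each genotype (Mxd4 at 0.67 and 0.60) and 1 lower in wild-type cells (Mxd1 at -0.64). Myc, which drives glycolytic genes in activated T cells, differed by 0.04 and -0.33 and was not called (adjusted p = 0.907 and 0.167). Of 7 partners of glucose and lactate transport, 3 were higher in each genotype (Emb, Slc2a6 and Txnip) and Arrdc4 was lower in Tet2-deficient cells (-0.50, adjusted p = 0.0491). Txnip, which restrains glucose uptake, was 1.01 higher in wild-type and 1.37 higher in Tet2-deficient Th17 cells.

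Cell cycle genes had medians of opposite sign in the genotypes, but the positive median in Tet2-deficient cells rests on 1 Th17 array. In the Th17 against Th1 contrast their median was -0.26 over 19 genes in wild-type cells (0 called) and 0.19 in Tet2-deficient cells (1 called, Kif20a), while Pfkl, Pfkfb3, Slc16a3, Pdk1, Bnip3, Egln1, P4ha1 and Kdm3a were higher in both. In Th1 cells, loss of Tet2 went with a median of -0.38 in these 19 genes, all of them lower and 0 called, beside the Pdk1 and Hk2 values above. In Th17 cells the same list had a median of 0.19, with 18 of 19 higher and 0 called, while Hk2 was at -0.32. That rise rests on Tet2-deficient Th17 array 2, at an end of the Y-linked range. The mean level of the list was 8.67 on array 1 and 9.15 on array 2 of that group. It was 8.73 and 8.74 in wild-type Th17 cells and 8.67 and 8.72 in Tet2-deficient Th1 cells. The difference of the Tet2 effect between the cell types, which array 2 also enters, had a median of 0.56 in these genes, with 19 of 19 higher and 0 called. Their part in the Tet2 differences was not tested. Of 6 stromal and endothelial markers, 1 was called higher in wild-type Th17 cells (Pecam1 at 1.32) and 2 in Tet2-deficient Th17 cells (Pecam1 at 1.13 and Dcn at 1.01). Dcn ran from 5.30 to 6.58 over the 8 arrays. By sign alone, 3 of the 6 were higher and 3 lower in wild-type cells, and 4 and 2 in Tet2-deficient cells. Col1a1, for 1, read 7.28 to 7.40 on Th17 arrays and 7.42 to 7.59 on Th1 arrays. The mean level of the 6 ran from 6.27 to 6.40 on Th1 arrays and from 6.46 to 6.76 on Th17 arrays, and their part in the Th17 differences was not tested.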

How the data were processed

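Total RNA of 8 cultures was biotin-labelled and hybridised to 1 Affymetrix array each. The deposited values are on a log2 scale, and the submitters' processing notes name RMA and Partek as the authors' tools. The sources used here give no versions and no log base, which was inferred from the range of the values. Probesets that the platform annotation pairs with 1 gene symbol were used (21789 of 35556), 1 per gene by the highest mean over the 8 arrays, which left 19938 genes. No array was left out, and none of the 19938 genes was left out for a low level; probesets with several symbols or none were not used.

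Group means were fitted with limma 3.58.1 in R 4.3.3 (lmFit and eBayes with an intensity trend, 4 residual degrees of freedom) over all 8 arrays. Tests were two-sided, with Benjamini-Hochberg adjustment over all 19938 genes. The fit was tested on simulated data. The 2 arrays of a group are labelled biological replicates; nothing in the labels says how many mice each came from, so p values measure the spread between these cultures. The number of arrays limits the precision.

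The genes and gene lists were chosen with earlier results of these data known. Every measured gene of the list is given by its level, with array values for genes called in any contrast and, per contrast, for the 4 with the smallest p in each direction; genes of the pathway lists are named where called. Of the marker lists, those called between Th17 and Th1 cells were Il17a, Il17f, Il23r, Ccr6 and Rora (higher) and Ifng, Tbx21, Il12rb2 and Eomes (lower) in both genotypes, with Cd28 and Xist higher in Tet2-deficient cells, beside the stromal genes in the text. Marker lists, sex-linked levels and promoter letters were read beside the fit. Promoter windows came from RefSeq on GRCm38.p6. Alternatives were leaving out each array, other normalizations, probeset rules, a filter on dim genes, a replicate block, sex-linked levels, and the groups fitted alone.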

Additional observations from a re-analysis of the deposited data

How the results depend on the processing

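In wild-type cells, the count of called glycolysis and hypoxia genes between Th17 and Th1 cells (10) ran from 4 to 8 when 1 array was left out, with 4 without Th17 array 1 and 4 without Th17 array 2. It was 3 without both Th17 arrays at the ends of the Y-linked range. In Tet2-deficient cells the count (14) ran from 6 to 14 when 1 array was left out, with 6 without Th17 array 1, 7 without Th17 array 2, 6 without Th1 array 1 and 9 without Th1 array 2 of that genotype. It was 9 after quantile normalization, 8 when Y-linked expression entered as a covariate and 6 without both Th17 end arrays, with 1649, 1447 and 975 of all genes called. The cause was not tested, beyond fewer arrays where arrays were left out. Without wild-type Th17 array 2 the count over all genes in wild-type cells fell from 1689 to 667, and without Tet2-deficient Th17 array 1 that in Tet2-deficient cells fell from 2078 to 815. Pfkl and P4ha1 were called under all 19 alternatives in both genotypes, and Pdk1, Slc16a3 and Bnip3 under all 19 in Tet2-deficient cells. The replicate block gave 8 and 11 genes of the list. Same-numbered arrays did not deviate together (correlations of -0.189 to 0.0534), and the labels do not say whether they share a preparation. The own-chromosome probeset, an alternative chosen after seeing the data, gave 9 and 14. The genotype comparisons called 0 genes of the list under every alternative run. Of the 8 genes followed for the difference between genotypes under each alternative, 2 changed sign, Ndrg1 (from -0.16, with -0.35 to 0.029 when 1 array was left out) to 0.029 without wild-type Th17 array 2 and Ak4 to 0.0005 at its own-chromosome probeset. Outside those 8, Higd1a went from 0.13 to -0.40, Hk1 from -0.07 to 0.02 and Pgam1 from -0.06 to 0.0003 at that probeset, none called. With 2 arrays a group, calls near the threshold changed with the arrays kept and with the processing. Reliance on a single array was not told apart from the lower precision of fewer arrays.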
